A study of Mus musculus with 8 samples.

Results

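The genes described here encode molecular chaperones and heat shock proteins, 45 listed genes of the 21368 mouse genes that the array's probes could be named for. The family was chosen by the log2 fold change of *Hsp90aa1* in this same comparison, among the largest rises in the knockout, so that difference is given as a description with no test, and counts and medians are over the other 44 genes. Although the family was named for the cytosol, 5 of the 45 (*Hspa9*, *Hspd1*, *Hspe1*, *Dnaja3* and *Trap1*) encode chaperones of the mitochondrion. Total RNA from isolated hepatocytes was hybridised to 8 single-colour expression arrays. Of these, 4 came from control mice with the CB1 cannabinoid receptor intact (hCNR1+/+, labelled hCNR1_WT) and 4 from littermates without it in hepatocytes (hCNR1-/-, labelled hCNR1_cKO). All mice were males of 12 to 14 weeks, of the strain labelled CNRO, on a standard diet, and no toxin or drug is named for them.

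The knockout was made by crossing a floxed *Cnr1* allele with Cre under the albumin promoter, which is active in hepatocytes, so other liver cells keep the receptor. The labels do not say whether the controls carried Cre or the floxed allele. The comparison addresses which transcripts differ between resting hepatocytes with and without the receptor. Nothing in the labels ties each array to a separate animal, so p-values measure the spread between these samples, which may be partly technical. The probe for *Cnr1* itself was well above background on 0 of the 8 arrays and could not check the labels.

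Chaperones bind unfolded or partly folded proteins and release them through cycles of ATP binding and hydrolysis. HSP70 proteins act first, recruited to their clients by J-domain proteins and reset by nucleotide exchange factors, and HSP90 then finishes the maturation of kinases and steroid receptors with a set of co-chaperones. When unfolded proteins build up, the heat shock factor HSF1 is released from chaperones, binds heat shock elements in promoters and induces the stress-inducible members. In liver these proteins are abundant, as hepatocytes secrete most plasma proteins and meet oxidative and toxic stress.

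Of the 45 genes, 43 had at least 1 probe and 61 probes in all, while *Hspa1b* and *Dnajb5* had none that could be matched. Signals are log2 intensities relative to the 75th percentile of each array, so a value of 0 is as bright as that percentile and a difference of 1 is 2-fold. Genes entered the test when the scanner software flagged a probe as well above background on 4 or more of the 8 arrays. This held for 42 members, 41 besides *Hsp90aa1*, and the brightest probe stood for a gene. Of the 42, 38 were well above background on all 8 arrays. *Dnajb4*, a J-domain protein, was well above background on 1 array of each genotype and was not tested.

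The arrays were not equally bright. The 75th percentile of intensity was 62.0 to 139 on the hCNR1+/+ arrays and 79.4 to 124 on hCNR1-/- replicates 1 to 3, but 29.3 on hCNR1-/- replicate 4. That array also had the lowest mean correlation with its own group, 0.942, against 0.964 to 0.980 for the other 7. All 8 lay on 1 slide, the hCNR1+/+ arrays in its first row and the hCNR1-/- arrays in its second, so the row and the genotype cannot be told apart. Because hCNR1-/- replicate 4 stood apart, results are given with and without it. Hepatocyte markers were bright on every array, all 14 of 14 listed being tested with 0 called by limma. At an unadjusted p below 0.05, 3 of the 14 differed, *Pck1* (−1.81) and *Ass1* (−1.14), with groups apart downwards, and *Cyp3a11* (0.80). The differences of the 10 tested among 12 Kupffer cell markers were all negative. Their mean log2 signal was 1.39 to 2.59 on the hCNR1+/+ arrays and 0.23 to 1.12 on the hCNR1-/- arrays. The tests called 2 of them lower (*Marco* and *Ctss*), beside 1.30% of all genes tested. *Ctss* was well above background on 4 hCNR1+/+ but only 2 hCNR1-/- arrays. The mean signals of endothelial markers overlapped between genotypes. Of the 7 tested 5 were negative, and *Pecam1* (−0.69) alone had an unadjusted p below 0.05. Of 7 stellate cell markers only *Dcn* was tested, at −0.91 ± 0.42. The T cell marker *Cd3e* was at 0.90 with groups apart (limma adjusted p = 0.153), and none of 6 neutrophil markers was tested. For immediate-early genes, which rise during cell isolation, 13 of 13 were tested with 0 called by limma at an adjusted p below 0.05. Of these 9 were negative, and *Jun* (0.56) alone had an unadjusted p below 0.05. The part of these other cells in the chaperone values was not tested, and in such bulk samples fewer cells of a type and less RNA per cell cannot be told apart.

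Heat shock elements are repeats of the 3 letters GAA in alternating orientation. They were searched as GAANNTTC and TTCNNGAA, each its own reverse complement, and as longer forms of 3 repeats, GAANNTTC extended by NNGAA or TTCNNGAA extended by NNTTC, which are reverse complements of each other and contain both short forms. The windows were RefSeq promoters of build GRCm38.p6, from 250 bases before to 50 after each start, and 38 of the 45 members had one, several of them more than 1. A longer form was found in 5 of these 38 members (*Hspd1*, *Hspe1*, *Dnajb6*, *Chordc1* and *Hsph1*), beside 0.662% of all 27025 genes in the table. Either short form was in 18 of the 38, beside 17.0% of all genes. The first stretches below are examples of matches upstream of members, with matched letters in capitals. Not every match is printed. *Dnajb1*, an inducible member with a promoter entry, held no match, and *Hsph1* had short matches upstream that are not shown. The last pair belongs to the 2 members called in the comparison, *Ptges3* and *Hspbp1*, and holds no match in the whole window. Each is written 5′ to 3′ on the strand of its gene.
*Hspe1*, shared with *Hspd1*, which is read the other way, chr1:55088038-55088097, plus strand: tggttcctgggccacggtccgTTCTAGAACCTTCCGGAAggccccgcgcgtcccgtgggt
*Dnajb6*, chr5:29735829-29735888, plus strand: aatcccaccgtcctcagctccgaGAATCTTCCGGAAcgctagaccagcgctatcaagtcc
*Hspa1a*, chr17:34972227-34972286, minus strand: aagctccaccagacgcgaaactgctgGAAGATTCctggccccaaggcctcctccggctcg
*Hspb1*, chr5:135887786-135887845, plus strand: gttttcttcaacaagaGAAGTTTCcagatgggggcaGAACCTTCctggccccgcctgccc
*Ptges3*, chr10:128058882-128058981, plus strand: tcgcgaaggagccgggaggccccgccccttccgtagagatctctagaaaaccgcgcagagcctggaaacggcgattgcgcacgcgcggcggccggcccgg
*Hspbp1*, chr7:4684982-4685081, minus strand: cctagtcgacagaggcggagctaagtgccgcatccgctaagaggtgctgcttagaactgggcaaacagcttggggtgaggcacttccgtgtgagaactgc

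The *Hspa1b* promoter, chr17:34959189-34959488 on the minus strand, was identical to that of *Hspa1a* at 296 of 300 positions, and the stretch above was the same in both. A match is a description of letters and shows no binding. The 7 members without a promoter entry were *Hsp90aa1*, *Hsp90ab1*, *Hspa8*, *Hspa9*, *St13*, *Hsf1* and *Cct4*.

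*Hsp90aa1* encodes the inducible cytosolic HSP90. Its single probe gave log2 signals of 2.98, 2.75, 1.51 and 1.26 on hCNR1+/+ replicates 1 to 4 and of 4.70, 4.23, 5.05 and 5.05 on hCNR1-/- replicates 1 to 4. All 4 hCNR1-/- arrays were above all 4 hCNR1+/+ arrays, and the hCNR1+/+ arrays themselves fell into a brighter and a dimmer pair. The difference was 2.63 ± 0.41 on the log2 scale (SE, n = 4 per group), or 6.20-fold. It ranked 26th among the log2 fold changes of the 11072 genes tested. Unlike many of its relatives below, *Hsp90aa1* was no lower on hCNR1-/- replicate 4, and without that array the difference was 2.53.

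Among the other 41 tested members, 26 (63.4%) had a positive and 15 a negative difference, beside 56.6% of all genes tested with a positive one. That share is also the background for the sign counts of the groups below. Without any scaling between arrays, which shifts the median of all genes from 0.0833 to −0.472, 10 were positive and 31 negative. At both settings 25 of the 41 were above the median of all genes. The median log2 fold change was 0.173, beside 0.0833 over all genes tested. At an adjusted p below 0.05 limma called 2 of the 41 higher (*Ptges3* and *Hspbp1*), beside 2.94% of all genes tested, and 0 lower, beside 1.30%. At an unadjusted p below 0.05, 8 were higher, beside 14.7% of all genes, and 2 lower, beside 6.92%. At a fold change above 2 with p below 0.05, the threshold the study names, read here as an unadjusted p, *Ptges3* and *Hspbp1* were higher, beside 4.78% of all genes, and *Bag2* and *Tcp1* were lower, beside 3.75%. The groups did not overlap for 4 members that were higher, beside 12.7% of all genes, and for 1 that was lower, beside 5.04%. The direction of the background itself rests on the scaling. The calls over all genes were 325 higher and 144 lower here, 134 and 85 after quantile normalization, 25 and 25 after median scaling, 1 and 29 with no scaling, 30 and 51 in the deposited z-scores, and 101 and 206 with the percentile taken over bright probes only.

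**Figure D1:**
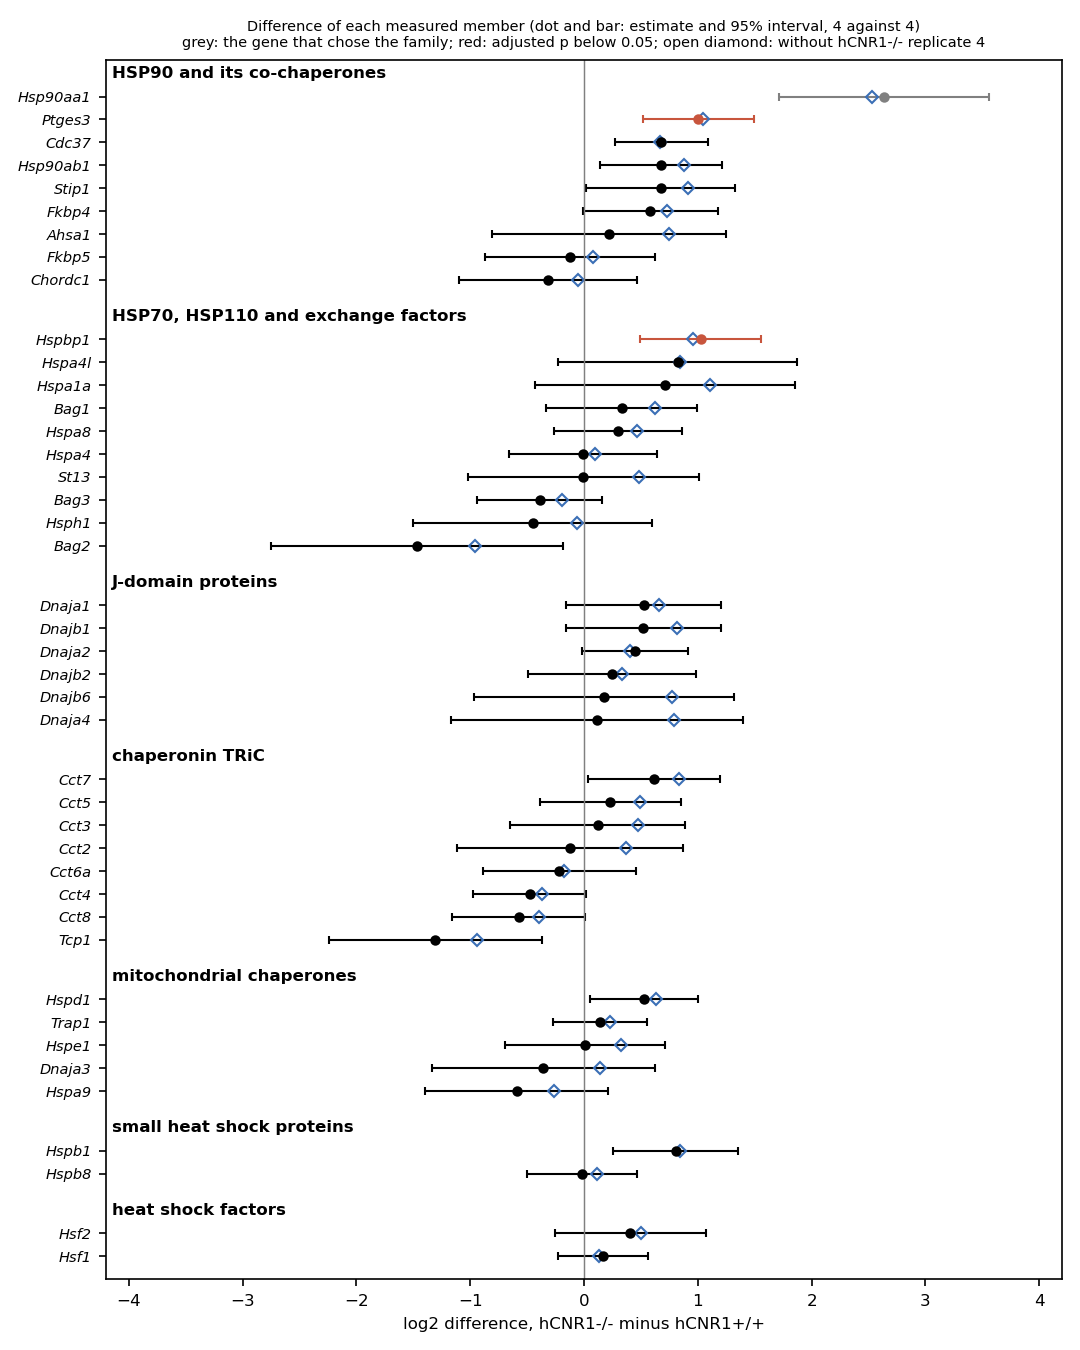
Log2 difference (hCNR1-/- minus hCNR1+/+, x axis) of the 42 tested members by role, with 95% intervals over 4 against 4 arrays, and as open diamonds without hCNR1-/- replicate 4. *Ptges3* and *Hspbp1*, in red, pass the adjusted threshold, and most diamonds lie to the right of their dots. *Hsp90aa1*, in grey, carries no test, and its interval is not to be read as one, as its difference chose the family.

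The HSP90 group held 8 tested genes besides *Hsp90aa1*, of which 6 had a positive difference (5 with no scaling) and 1 was called higher. Their median log2 fold change was 0.63, against 0.396 after quantile normalization and 0.072 with no scaling. The medians of all genes were 0.0833, 0.000351 and −0.472, and 6 of the 8 were above it at each of these settings. *Ptges3*, or p23, holds HSP90 in its ATP-bound closed state. Its brightest probe gave 5.70, 5.53, 5.36 and 5.04 on the hCNR1+/+ arrays and 6.41, 6.22, 6.71 and 6.30 on the hCNR1-/- arrays. The groups did not overlap, and the difference was 1.01 ± 0.22 (SE), a 2.01-fold rise (limma adjusted p = 0.0388).

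*Cdc37*, which brings protein kinases to HSP90, was also apart. It gave 6.78, 6.79, 6.74 and 6.87 on the hCNR1+/+ arrays and 7.64, 7.49, 7.26 and 7.50 on the hCNR1-/- arrays. With a difference of 0.68 ± 0.18 it did not pass the adjusted threshold (limma adjusted p = 0.0672). The exact permutation p was 0.0286, the smallest that 4 against 4 arrays allow. Any gene with groups apart takes that value, as did the 12.7% of all genes apart upwards and the 5.04% apart downwards. It therefore adds nothing to the groups being apart. *Hsp90ab1*, the constitutive HSP90, gave 8.34, 8.26, 8.33 and 8.51 on the hCNR1+/+ arrays. It gave 9.35, 9.16, 9.21 and 8.43 on hCNR1-/- replicates 1 to 4. Replicates 1 to 3 were above every hCNR1+/+ array and replicate 4 lay within their range. The difference of 0.67 ± 0.24 missed the threshold (limma adjusted p = 0.142).

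*Stip1*, the HOP adaptor between HSP70 and HSP90, and *Fkbp4*, an immunophilin of steroid receptor complexes, had differences of 0.67 ± 0.29 and 0.58 ± 0.27. *Ahsa1*, the activator of the HSP90 ATPase, gave 5.63 to 5.88 on the hCNR1+/+ arrays and 6.70, 6.33 and 6.48 on hCNR1-/- replicates 1 to 3, but 4.39 on replicate 4. Its difference was 0.22 ± 0.46 over all 8 arrays and 0.75 ± 0.16 without replicate 4. *Fkbp5*, a glucocorticoid-induced immunophilin, was at −0.13, and the lowest of the group was *Chordc1*, an HSP90-binding protein with a longer heat shock element form, at −0.32 ± 0.35. *Chordc1* was well above background on 3 of the 4 hCNR1-/- arrays.

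**Figure D2:**
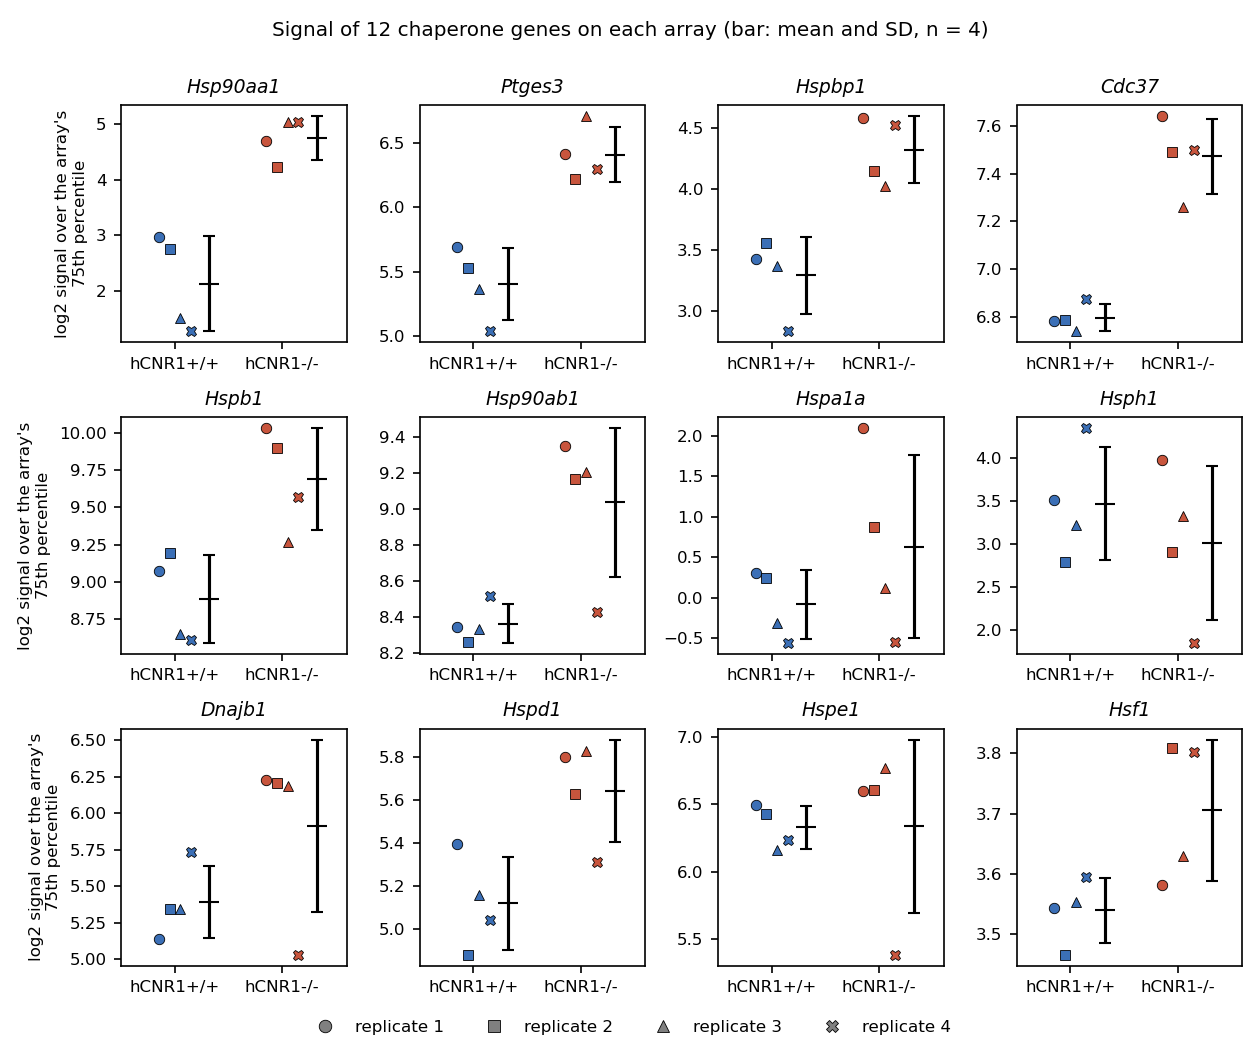
Log2 signal over each array's 75th percentile (y axis) of 12 members on the hCNR1+/+ and hCNR1-/- arrays (x axis), 1 symbol per replicate, with mean and SD (n = 4). The groups do not overlap for *Hsp90aa1*, *Ptges3*, *Hspbp1*, *Cdc37* and *Hspb1*, and hCNR1-/- replicate 4, the cross, is lowest of all for *Hsph1*, *Dnajb1* and *Hspe1*.

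HSP70, HSP110 and their exchange factors gave 10 tested genes, 5 with a positive and 5 with a negative difference, and 1 called higher. That gene was *Hspbp1*, an exchange factor that binds HSP70 and slows its cycle. It gave 3.42, 3.55, 3.36 and 2.83 on the hCNR1+/+ arrays and 4.58, 4.14, 4.03 and 4.52 on the hCNR1-/- arrays. The groups did not overlap and the difference was 1.03 ± 0.24, a 2.04-fold rise (limma adjusted p = 0.0461). *Hspa1a*, the classic inducible HSP70, was dim. Its signals were 0.31, 0.25, −0.31 and −0.56 on the hCNR1+/+ arrays. On the hCNR1-/- arrays they were 2.10, 0.87, 0.12 and −0.55. Replicates 1 and 2 were above every hCNR1+/+ array and replicates 3 and 4 were within their range, so the difference of 0.71 ± 0.51 was not apart from the spread (limma adjusted p = 0.452). *Hspa1a* and *Hspa1b* are nearly identical copies, and a probe for one may bind transcripts of both.

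*Hsph1*, the inducible HSP110 that exchanges nucleotide on HSP70, gave 3.51, 2.79, 3.22 and 4.34 on the hCNR1+/+ arrays and 3.97, 2.91, 3.32 and 1.85 on the hCNR1-/- arrays. Replicates 1 to 3 lay within the hCNR1+/+ range and replicate 4 below it. The difference was −0.45 ± 0.47 (limma adjusted p = 0.611), and −0.06 without replicate 4. *Hspa8*, the constitutive HSP70, and *Hspa4*, a constitutive HSP110, were at 0.30 ± 0.25 and −0.01 ± 0.29. *Hspa4l*, a further HSP110, was at 0.82 ± 0.47 and was well above background on 3 of the 4 hCNR1+/+ arrays. The lowest of the group was *Bag2*, an exchange factor that also curbs the ubiquitin ligase partner of HSP70. It gave 1.06, 1.87, 2.19 and 3.24 on the hCNR1+/+ arrays and 1.41, 1.11, 0.88 and −0.91 on the hCNR1-/- arrays, the last not well above background. The difference was −1.47 ± 0.57 (limma adjusted p = 0.176) and −0.96 without hCNR1-/- replicate 4. *Bag1* was at 0.33, *Bag3*, a BAG protein of selective autophagy, at −0.39, and *St13*, the HIP adaptor, at −0.01.

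J-domain proteins select clients for HSP70, and all 6 tested outside the mitochondrion had a positive difference (6 of 7 with the mitochondrial *Dnaja3*), from 0.11 for *Dnaja4* to 0.52 for *Dnaja1*, with 0 of the 6 called by limma, also at an unadjusted p below 0.05. With no scaling between arrays all 6 differences were negative, from −0.44 for *Dnaja4* to −0.03 for *Dnaja1* and *Dnajb1*, yet all 6 were above the median of all genes at that setting, −0.472. *Dnajb1*, the inducible partner of HSP70, gave 5.14, 5.35, 5.35 and 5.73 on the hCNR1+/+ arrays and 6.23, 6.21, 6.19 and 5.03 on the hCNR1-/- arrays. Replicates 1 to 3 were above every hCNR1+/+ array and nearly equal, while replicate 4 was below every hCNR1+/+ array. The difference was 0.52 ± 0.30 over all arrays (limma adjusted p = 0.355) and 0.82 ± 0.17 without replicate 4 (limma adjusted p = 0.025). *Dnaja4* and *Dnajb6* showed the same layout and moved from 0.11 and 0.17 to 0.79 and 0.77 without that array. *Dnaja2* and *Dnajb2* were at 0.45 and 0.24.

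The chaperonin TRiC, a ring of 8 different subunits that folds actin and tubulin, was measured whole. Its subunits were split, 3 positive and 5 negative, with a median of −0.17 and 0 of 8 called by limma at the adjusted threshold. Without hCNR1-/- replicate 4 they were 4 and 4 with a median of 0.10, and *Cct2* moved from −0.12 to 0.37. At an unadjusted p below 0.05 the same fit had 2 of the 8, *Cct7* higher and *Tcp1* lower. *Tcp1*, the alpha subunit, was the 1 member whose groups were apart downwards. It gave 3.94, 3.57, 3.71 and 4.77 on the hCNR1+/+ arrays and 3.43, 3.06, 2.67 and 1.59 on the hCNR1-/- arrays. The difference was −1.31 ± 0.42, 2.48-fold (limma adjusted p = 0.108), and −0.94 without replicate 4, with the groups still apart. *Cct7* was the highest subunit, at 0.61 ± 0.26. It gave 5.59 to 5.77 on the hCNR1+/+ arrays and 6.82, 6.28, 6.49 and 5.66 on hCNR1-/- replicates 1 to 4, so only replicate 4 overlapped. *Cct3* and *Cct5* were at 0.12 and 0.23, and *Cct2*, *Cct4*, *Cct6a* and *Cct8* at −0.12, −0.48, −0.22 and −0.57.

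Among the 5 mitochondrial chaperones 3 were positive and 2 negative, with 0 called by limma and 1, *Hspd1*, at an unadjusted p below 0.05. *Hspd1* and *Hspe1* encode the HSP60 chaperonin and its HSP10 lid and are read in opposite directions from the shared promoter printed above. *Hspd1* gave 5.39, 4.88, 5.16 and 5.04 on the hCNR1+/+ arrays and 5.80, 5.63, 5.83 and 5.31 on the hCNR1-/- arrays. *Hspe1* gave 6.49, 6.43, 6.16 and 6.23 on the hCNR1+/+ arrays and 6.60, 6.61, 6.77 and 5.38 on the hCNR1-/- arrays. For both, hCNR1-/- replicates 1 to 3 were above every hCNR1+/+ array, and replicate 4 fell within their range for *Hspd1* and below it for *Hspe1*. The differences were 0.52 ± 0.21 for *Hspd1* (limma adjusted p = 0.190) and 0.01 ± 0.31 for *Hspe1* (limma adjusted p = 0.991). Without replicate 4 they were 0.63 ± 0.17 and 0.33 ± 0.15. *Hspa9*, the mitochondrial HSP70, was lowest at −0.59 ± 0.36. *Trap1*, the mitochondrial HSP90, was at 0.14, and *Dnaja3*, a mitochondrial J-domain protein, at −0.36, or 0.14 without replicate 4.

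*Hspb1*, the small heat shock protein HSP27, which holds unfolded proteins without ATP, was apart between genotypes. It gave 9.07, 9.20, 8.65 and 8.61 on the hCNR1+/+ arrays and 10.03, 9.90, 9.27 and 9.57 on the hCNR1-/- arrays. The difference of 0.81 ± 0.25, a 1.75-fold change, did not pass the adjusted threshold (limma adjusted p = 0.0964). The exact permutation p of 0.0286 again only restates that the groups were apart. The other small heat shock protein, *Hspb8*, which works with BAG3, was at −0.02 ± 0.22. *Hsf1*, the heat shock factor itself, gave 3.54, 3.47, 3.55 and 3.60 on the hCNR1+/+ arrays and 3.58, 3.81, 3.63 and 3.80 on the hCNR1-/- arrays. The groups overlapped by a single hCNR1-/- array, and the difference was 0.17 ± 0.18 (limma adjusted p = 0.619). *Hsf2* was at 0.41 ± 0.30 and was well above background on 3 of the 4 hCNR1-/- arrays. Of the 5 members with a longer heat shock element form, 3 had a positive difference, the median was 0.01 and the highest was 0.52, and without hCNR1-/- replicate 4 the median was 0.33. The 16 tested members with either short form, these 5 included, had a median of 0.14, with 10 positive, and 0.56 without that array. The 19 tested members with a promoter entry and no form had a median of 0.24, with 13 positive, and 0.47 without it.

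The drop on hCNR1-/- replicate 4 recurred across the groups. For 19 of the 41 members hCNR1-/- replicates 1 to 3 were all above every hCNR1+/+ array, beside 24.3% of all genes tested. In 15 of the 41 replicate 4 was not above them as well, beside 11.6% of all genes, and in 10 it was below every hCNR1+/+ array, beside 7.33%. The mean log2 signal of the 41 members was 4.22 to 4.40 on the hCNR1+/+ arrays, 4.81, 4.60 and 4.63 on hCNR1-/- replicates 1 to 3 and 3.76 on replicate 4. Over all genes tested the same means were 2.19 to 2.28, 2.36 to 2.42 and 2.03. Replicate 4 was the lowest of all 8 arrays for 22 members, beside 38.9% of all genes. Without it limma called 12 of the 41 higher, beside 10.1% of all genes, and 0 lower, beside 2.92%, with 17 higher, beside 24.0%, and 1 lower, beside 7.69%, at an unadjusted p below 0.05. The 12 were *Hsp90ab1*, *Stip1*, *Ahsa1*, *Ptges3* and *Cdc37* of the HSP90 group, *Bag1* and *Hspbp1*, the J-domain proteins *Dnaja4*, *Dnajb1* and *Dnajb6*, *Cct7* and *Hspd1*. The median log2 fold change of the 41 was then 0.473, beside 0.175 over all genes, and 32 of the 41 were positive, 27 of them above that median of all genes. The 6 that turned from negative to positive were *Fkbp5*, *Hspa4*, *St13*, *Cct2*, *Dnaja3* and *Hspb8*.

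**Figure D3:**
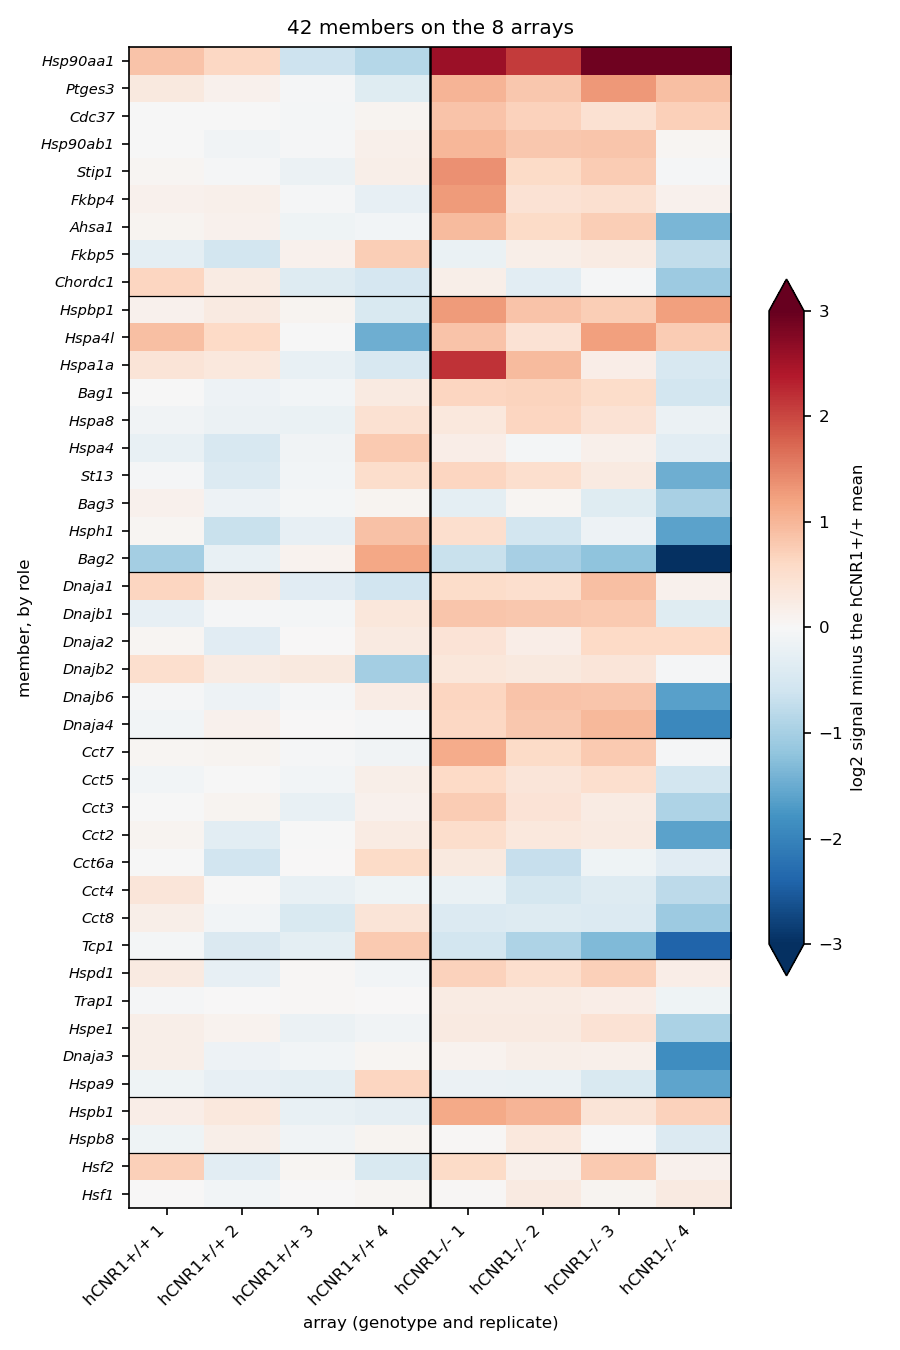
Log2 signal minus the mean of the 4 hCNR1+/+ arrays (colour, red higher and blue lower) for the 42 tested members (y axis, by role) on the 8 arrays (x axis). The first 3 hCNR1-/- columns are mostly red and the fourth is blue for many of the same genes. The fourth is red for *Hsp90aa1*, *Ptges3*, *Cdc37*, *Hspbp1* and *Hspb1*, and also for others such as *Hspa4l* and *Dnaja2*.

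Several genes had more than 1 tested probe, 9 in all, and the probes did not always give the same difference. For *Ptges3* 3 of the 4 probes passed the adjusted threshold over the 19985 probes tested, beside 4.45% of all probes called higher. Their differences were 1.01, 0.99 and 0.81, and the dimmest was at 0.38 ± 0.28 (limma adjusted p over probes = 0.46). *Dnajb6* also had 4 probes, for 2 transcripts. Those for the first transcript were at 0.17 and 0.22, and those for the second at 0.20 and 1.13. The probe with the large difference was the dimmest, at −0.13, −0.05, −0.39 and −0.12 on the hCNR1+/+ arrays and 0.88, 0.68, 1.13 and 1.14 on the hCNR1-/- arrays. It was well above background on all 8 arrays, its groups did not overlap, and it did not fall on hCNR1-/- replicate 4 (1.13 ± 0.20, limma adjusted p over probes = 0.0115).

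The other 3 *Dnajb6* probes were lowest of all 8 arrays on replicate 4. *Dnaja2* had probes of opposite sign, 0.45 ± 0.21 and −0.52 ± 0.27, as did *Hsph1*, −0.45 ± 0.47 and 0.28 ± 0.32, and none of these passed. *Hspa4* gave −0.01, 0.58 and 0.41 and *Hspa8* 0.30, 0.08 and 0.57. The 3 probes of *Hspe1* stayed near 0, at 0.01, −0.01 and −0.11, those of *Bag1* were at 0.33 and 0.25 and those of *Dnajb2* at 0.24 and 0.16. Second probes of *Dnaja1* and *Dnaja4* were well above background on 0 and 2 arrays and were not tested.

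**Figure D4:**
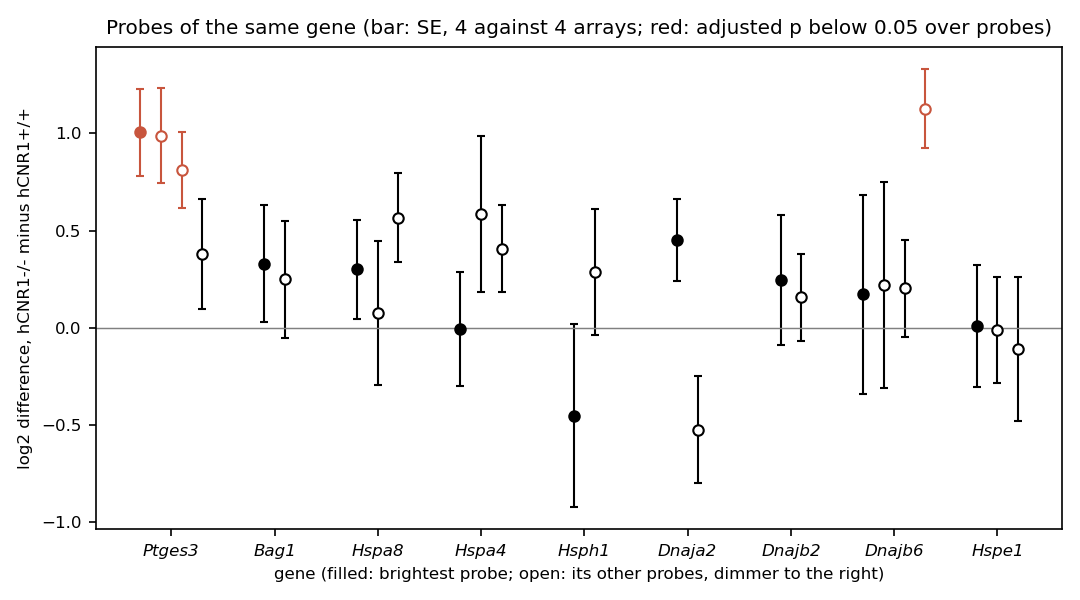
Log2 difference (hCNR1-/- minus hCNR1+/+, y axis) with SE for every tested probe of the 9 genes with more than 1 (x axis), the brightest filled. Red marks an adjusted p below 0.05 over probes, which 3 *Ptges3* probes and the dimmest *Dnajb6* probe reach.

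Few other genes of the pathway passed the test, *Canx* higher and *Hsbp1* lower, beside 2.94% and 1.30% of all genes tested. Of the further HSP70 genes 3 of 5 were tested and 0 called. *Hspa13*, an HSP70 relative of the microsomes, was at 1.84 ± 0.52 and *Hspa2*, best known from testis, at −1.43 ± 0.40, both with groups apart (limma adjusted p = 0.0768 and 0.0744). Over all genes tested, groups were apart upwards for 12.7% and downwards for 5.04%. *Hspa13* was well above background on 3 of the 4 hCNR1+/+ arrays and *Hspa2* on 3 of the 4 hCNR1-/- arrays. Of 13 further co-chaperones with tetratricopeptide repeats or HSP90 contacts all 13 were tested, 9 positive and 0 called, from −0.36 for *Sugt1* to 0.64 for *Pih1d1*. A further list of J-domain proteins gave 11 tested of 13, 7 positive and 0 called. All 6 subunits of prefoldin, which hands actin and tubulin to TRiC, were tested. Of these 5 were positive and 0 called, the highest being *Pfdn4* at 1.10 ± 0.29 (limma adjusted p = 0.0640). Groups were apart upwards for *Pfdn1* (0.76), *Pfdn4* and *Pfdn6* (0.70). Among the further co-chaperones and BAG genes, *Stub1* was apart upwards (0.34) and *Bag4* downwards (−0.76). Small heat shock proteins beyond the members gave 3 tested of 6 and further BAG genes 3 of 3, with 0 called in either.

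*Hsbp1*, which binds heat shock factor and is known to dampen HSF1, was called lower. It gave 4.83, 4.62, 4.63 and 4.55 on the hCNR1+/+ arrays and 4.10, 3.60, 3.85 and 3.55 on the hCNR1-/- arrays. The groups did not overlap, and the difference was −0.88 ± 0.20 (limma adjusted p = 0.0448). It passed under 9 of 22 alternatives, staying negative in all 22, and not with the replicate block (limma adjusted p = 0.103). Chaperones of the endoplasmic reticulum, which answer to a separate stress response, were all measured, 17 of 17, with 9 positive, a median of 0.10 and 1 called. That gene was *Canx*, the calnexin that folds glycoproteins, at 0.94 ± 0.20 (limma adjusted p = 0.0362). It passed under 7 of 22 alternatives, none of them another scaling, and not with the replicate block (limma adjusted p = 0.104). *Hspa5*, the BiP chaperone that marks that response, was at 0.10 ± 0.20. The difference between these chaperones and the members was not tested.

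Alternative settings ended both calls. *Ptges3* and *Hspbp1* passed the adjusted threshold under 6 and 7 of 22 alternatives, none of them another scaling of the arrays, and the loss of any single array other than hCNR1-/- replicate 4 left 0 of the 41 members called, where 0.117% to 1.29% of all genes were called higher. Their differences stayed positive throughout, at 0.45 to 1.10 and 0.47 to 1.12.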

How the data were processed

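Total RNA of isolated hepatocytes was labelled with Cy3 and hybridised to 8 single-colour Agilent arrays, 4 per genotype. Per the file headers, the authors read spot intensity with Feature Extraction 12.0.3.1, which corrected background within each array. The deposited score table held z-scores of log intensity within each array (within 0.005 of values computed here) and served as an alternative. From the 59305 non-control spots, processed intensity was taken as log2 minus each array's 75th percentile, outlier spots were dropped and spots of a probe averaged. Probes were named by matching their accession to RefSeq, which named 28331 of 55681. Genes with a probe flagged well above background on 4 or more arrays were tested (11072 genes), represented by the brightest probe. Genotypes were compared with limma 3.58.1 in R 4.3.3 (lmFit, eBayes, two-sided, Benjamini-Hochberg over all genes tested), tested on simulated data first, and single genes with an exact two-sided permutation test over 70 assignments. No scaling or test for arrays is given in the sources used here. No spot was saturated, and the number of arrays limits the precision.

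Members and lists were chosen with earlier results of these data known. Every member is accounted for. Values on each array are given for called members, *Hsp90aa1*, *Hsf1* and the stress-inducible *Hspa1a*, *Hsph1*, *Dnajb1*, *Hspb1*, *Hspd1* and *Hspe1*. Others are given by role group, with counts and the highest and lowest difference. *Cdc37*, *Hsp90ab1*, *Ahsa1*, *Bag2*, *Tcp1*, *Cct7* and *Hsbp1* were given by array after their values were seen. Alternatives covered scaling, background, filters, probe choice, variance model, a replicate block and each array left out. The array design names build mm9, so no gene coordinates of another build are given for probes.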

Additional observations from a re-analysis of the deposited data

Results flagged for a closer look

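In groups of 4 arrays, a value was marked where its gap to the nearest of the others exceeded, as a share of the group's range, Dixon's 95% limit. Chance marks about 5% of groups, and 88 groups were examined, 84 of them a member in 1 genotype. Of the 13 marked values 11 were a low value of hCNR1-/- replicate 4, the dimmest array. Its log2 signals, each followed by the range of hCNR1-/- replicates 1 to 3, were 4.39 for *Ahsa1* (6.33 to 6.70), 5.59 for *Bag1* (6.70 to 6.80), −0.45 for *Dnaja4* (2.10 to 2.45) and 5.03 for *Dnajb1* (6.19 to 6.23). Further values were 3.03 for *Dnajb6* (5.30 to 5.50), 4.84 for *Cct2* (6.71 to 6.99), 1.89 for *Cct8* (2.57 to 2.60) and 5.38 for *Hspe1* (6.60 to 6.77). The mitochondrial *Dnaja3* and *Trap1* were at 3.87 (5.83 to 5.91) and 3.1 (3.41 to 3.46).

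The mean correlation of that array with its own group, 0.94, was marked too (0.97 to 0.98 for the others). On hCNR1+/+ replicate 4 *Hspa8* was high, at 9.87 (9.21 to 9.31), and *Dnajb2* was low, at 3.54 (4.81 to 5.07). What set these arrays apart was not tested.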

How the results depend on the processing

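At the adjusted threshold, 2 members besides *Hsp90aa1* were called higher. That count was 0 after quantile normalization, median scaling, no scaling, the percentile over bright probes, the deposited z-scores, normexp and no filter on dim probes, 1 with the mean of probes (2.67% of all genes called higher), 16 with array quality weights (19.7%) and 0 with the replicate block (0 of 11072). It was 0 to 12 with an array left out, 12 only without hCNR1-/- replicate 4 (10.1%, against 0.117% to 1.29% without another array). The count called lower was 0 throughout except 1 with array quality weights (5.83%). At fold above 2 with an unadjusted p below 0.05, the 2 higher became 0 under the 6 other scalings and background settings, 1 with the mean of probes, 1 with array quality weights and 0 to 3 with an array left out. The 2 lower became 0 with median scaling, 1 with the filter of all 8 arrays, 0 with array quality weights, 1 with the replicate block and 0 to 2 with an array left out. Groups apart upwards numbered 4, but 0 with median scaling, no scaling and normexp, and 4 to 19 with an array left out. Groups apart downwards numbered 1, but 4 after quantile normalization, 0 after median scaling, 5 with the percentile over bright probes, 3 in the z-scores, 0 with normexp, and 1 to 3 with an array left out. The median of 0.173 (0.0833 over all genes) was −0.383 with no scaling (−0.472 over all genes) and 0.515 with array quality weights (0.182 over all genes). *Hsp90aa1* ranged from 2.08 to 2.92. The causes were not tested.

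No pairing of the samples by replicate number was seen, but 4 arrays per genotype are too few to exclude it. The number was also the column of the array on the slide. Deviations of same-numbered arrays correlated at −0.157 to 0.211, and with the number as a block *Ptges3* and *Hspbp1* had limma adjusted p-values of 0.102 and 0.119.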
